A study of Homo sapiens with 24 samples.

Results

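The 50 genes described here encode machinery that builds, shapes and clears mitochondria. They were listed by name, with earlier results of these data known. They fall into 5 groups: 17 genes of protein import, 8 of fusion and fission, 7 of mitophagy, 13 of genome maintenance and biogenesis, and 5 proteases. All 50 were matched among the 58676 gene IDs of the count table, and 49 were among the 17327 genes that passed the filter on low counts. The exception was TOMM6, a small subunit of the outer membrane import pore, which had 0 counts in all 16 libraries and was not tested.

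RNA was sequenced from 4 cell lines of diffuse large B-cell lymphoma, labelled U-2932, OCI-LY19, OCI-LY3 and SU-DHL-10, each after 8 h with TAK-981 and at 0 h, with 2 replicates per line and time (16 libraries in 8 groups). TAK-981 inhibits the enzyme that activates SUMO, the small ubiquitin-like modifier, and the sources used here do not give its dose. All cells carry the wild-type genotype per the labels, and each line is an established culture, so differences between lines are differences between 4 cultures. The series text names SU-DHL4 in place of SU-DHL-10, and the sample labels are followed here. A vehicle sample at 8 h was not analysed here, so 8 h of culture and TAK-981 cannot be told apart. The labels do not say whether replicates were separate cultures, and p-values therefore measure the spread between these samples only, which may be technical.

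Most mitochondrial proteins are encoded in the nucleus, made in the cytosol and threaded through the TOM complex of the outer membrane and the TIM complexes of the inner membrane. The mitochondrial network is reshaped by GTPases that fuse and divide it, and damaged parts are handed to autophagy by receptors and adaptors in the process called mitophagy. Biogenesis is driven by transcription factors such as NRF1, GABPA and ESRRA with the coactivators PPARGC1A and PPARGC1B, while a small set of nuclear-encoded proteins copies and transcribes mitochondrial DNA, and matrix and inner membrane proteases remove misfolded proteins.

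Gene counts summed to between 16770677 and 24694466 in the 16 libraries. Levels are given as CPM, the counts scaled to a common library size after TMM scaling, and are not corrected for gene length, so they compare samples and not genes. At 0 h the OCI-LY19 libraries were much like those of OCI-LY3, with r = 0.983 across genes, where the other pairs of lines had r = 0.861 to 0.904. Replicates differed more at 0 h in OCI-LY19 and SU-DHL-10 (chi-square per degree of freedom 12.1 and 10.4) than in the other groups (2.61 to 5.80), and the mRNAs encoded by mitochondrial DNA took 4.24% and 6.22% of counts in the 2 libraries of OCI-LY19 at 0 h. Spike-in RNAs took 0.382% to 0.620% of counts in OCI-LY19 and U-2932 and 0.0435% to 0.0823% in SU-DHL-10 and OCI-LY3. The 7 B-cell markers stood above 1 CPM in every group, while the 6 T and NK cell markers summed to at most 4.20 CPM in a library. The sum of the B-cell markers in U-2932 was 1655 to 1671 CPM at 8 h, against 2337 to 2403 CPM at 0 h, and in OCI-LY3 2675 to 2704 CPM at 8 h, against 3517 to 3581 CPM at 0 h. In U-2932 PAX5 (303 CPM at 8 h, against 162 CPM at 0 h) and BLK (115 CPM, against 80.1 CPM) went the other way. The 4 plasma cell markers summed to 166 to 175 CPM at 8 h, against 78.7 to 82.9 CPM at 0 h, in OCI-LY19, and to 243 to 257 CPM at 8 h, against 403 to 412 CPM at 0 h, in U-2932. The higher sum in OCI-LY19 was that of XBP1 (167 CPM at 8 h, against 73.4 CPM at 0 h). SDC1, PRDM1 and TNFRSF17 had lower means at 8 h there. The 4 stroma and endothelium markers summed to 173 to 174 CPM at 8 h, against 71.9 to 86.4 CPM at 0 h, in OCI-LY19, and to 121 to 126 CPM at 8 h, against 79.2 to 99.1 CPM at 0 h, in OCI-LY3, nearly all of it COL1A1, and to at most 2.93 CPM in the other lines. The 5 monocyte and macrophage markers summed to at most 3.11 CPM, and the 4 epithelium markers to at most 9.97 CPM. The part of these markers in the results was not tested. In bulk RNA, fewer cells of a type and less RNA per cell cannot be told apart.

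The members' promoters share sequence features. Of the 50 genes, 42 had a promoter in the RefSeq table of GRCh38.p14, with 53 windows of 300 bases (250 before and 50 after the start of the gene). The core motif of NRF1, GCGCANGC on either strand, lay in 41.5% of the members' windows, against 18.3% of the windows of tested genes and 12% of all windows. The core of GABPA and other ETS factors, CCGGAAG on either strand, lay in 39.6%, against 16.3% and 10.3%. Counted by gene, 22 of 42 members (52.4%) held the NRF1 letters and 18 of 42 (42.9%) the ETS letters, against 24.1% and 21.5% of the 11545 tested genes with a window, but some genes have several overlapping windows. The other motifs searched on both strands were rarer. AAGGTCA (ESRRA) lay in 5.66% of members' windows, against 2.76% of those of tested genes, and TGATGNAA (ATF4) in 3.77%, against 2.08%. AAGATGGC (YY1) lay in 5.66%, against 4.46%, and the E-box CACGTG in 9.43%, against 9.18%. The ESRRA and YY1 letters each lay in 3 of the 53 windows and the ATF4 letters in 2, too few to compare. These shares describe letters and not bound sites. Promoters of 4 members are shown up to the base before the start of the gene, with matches to the NRF1 and ETS letters in capitals. They are TIMM10 and TOMM7, which rose in OCI-LY19 and fell in U-2932, BNIP3, which fell in U-2932 and rose in SU-DHL-10, and TFAM, which rose in OCI-LY19 and U-2932.
TIMM10, chr11:57530755-57531004, minus strand, with 2 ETS matches: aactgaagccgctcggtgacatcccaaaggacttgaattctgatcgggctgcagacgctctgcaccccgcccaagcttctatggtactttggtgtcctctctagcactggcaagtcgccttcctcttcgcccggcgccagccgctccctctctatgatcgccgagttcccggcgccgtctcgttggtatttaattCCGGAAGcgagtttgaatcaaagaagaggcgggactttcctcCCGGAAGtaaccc
TOMM7, chr7:22822850-22823099, minus strand, with 2 NRF1 matches: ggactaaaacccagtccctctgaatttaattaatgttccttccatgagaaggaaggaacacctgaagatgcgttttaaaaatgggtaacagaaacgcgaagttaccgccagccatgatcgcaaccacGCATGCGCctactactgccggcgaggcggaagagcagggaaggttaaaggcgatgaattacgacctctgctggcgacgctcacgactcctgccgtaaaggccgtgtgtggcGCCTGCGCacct
BNIP3, chr10:131981924-131982173, minus strand, with 4 NRF1 matches of which 2 overlap: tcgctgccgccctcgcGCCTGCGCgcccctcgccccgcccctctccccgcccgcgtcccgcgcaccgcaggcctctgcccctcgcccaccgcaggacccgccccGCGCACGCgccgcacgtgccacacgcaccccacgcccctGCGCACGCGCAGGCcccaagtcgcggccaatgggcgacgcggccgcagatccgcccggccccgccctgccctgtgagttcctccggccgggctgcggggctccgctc
TFAM, chr10:58385160-58385409, plus strand, with 1 NRF1 match: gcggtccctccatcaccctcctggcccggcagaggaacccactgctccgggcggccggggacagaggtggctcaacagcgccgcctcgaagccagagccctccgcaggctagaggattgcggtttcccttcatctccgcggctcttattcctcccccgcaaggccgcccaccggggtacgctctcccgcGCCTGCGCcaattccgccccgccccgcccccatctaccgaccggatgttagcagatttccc

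With TMM scaling the response of most of these genes depended on the line. A gene is called changed where its adjusted p is under 0.05 in the quasi-likelihood test of edgeR, after Benjamini-Hochberg adjustment over all 17327 tested genes, and fold changes are log2 of 8 h over 0 h with their standard errors (SE). The change at 8 h differed between lines for 41 of the 49 tested members in a test of that difference with 3 degrees of freedom, against 53.5% of all tested genes. With libraries scaled to added spike-in RNAs it differed for 25 of the 49, against 8570 of the 17327 tested genes. In SU-DHL-10, 1 member rose and 11 fell, so 24.5% of the 49 were called, where the share over all tested genes was 12.6% (6.3% higher and 6.27% lower). In OCI-LY3, 5 rose and 7 fell, again 24.5%, which is near the 25.5% of all tested genes (13% higher and 12.5% lower). In OCI-LY19, 24 rose and 9 fell, or 67.3%, against 39.4% of all tested genes (21.6% higher and 17.8% lower). Without TMM scaling 5 members were higher and 14 lower there, against 1919 and 5294 of the 17327 tested genes. With libraries scaled to added spike-in RNAs 9 members were higher and 5 lower there, against 2119 and 2087 of the tested genes. In U-2932, 13 rose and 25 fell, or 77.6%, against 50.9% of all tested genes (25.9% higher and 25% lower). With spike-in scaling 25 members were higher and 2 lower in U-2932, against 9049 and 729 of the 17327 tested genes. With that scaling the 7 members called in OCI-LY3 and the 1 called in SU-DHL-10 were higher. Of all tested genes, it called 2891 higher and 663 lower in OCI-LY3 and 666 higher and 99 lower in SU-DHL-10. All tested genes include many with few counts, which are harder to call. In OCI-LY19, 43 of the 49 members stood at 5 CPM or more, against 9316 of the 17327 tested genes. In U-2932 46 members did, against 10104 tested genes. A stricter filter on low counts called 6744 of 14525 tested genes in OCI-LY19 and 8668 in U-2932. The part of count depth in the members' shares was not tested. The groups of 2 libraries often did not overlap. Both libraries at 8 h lay above both at 0 h for 30 of the 50 members in OCI-LY19, against 34.3% of all tested genes, and below both for 14, against 32%. In U-2932 they lay above for 15, against 37.1% of all tested genes, and below for 27, against 36.3%. In SU-DHL-10 they lay above for 9, against 24.3%, and below for 29, against 25.3%. In OCI-LY3 they lay above for 13, against 27.7%, and below for 23, against 30.1%.

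**Figure D1:**
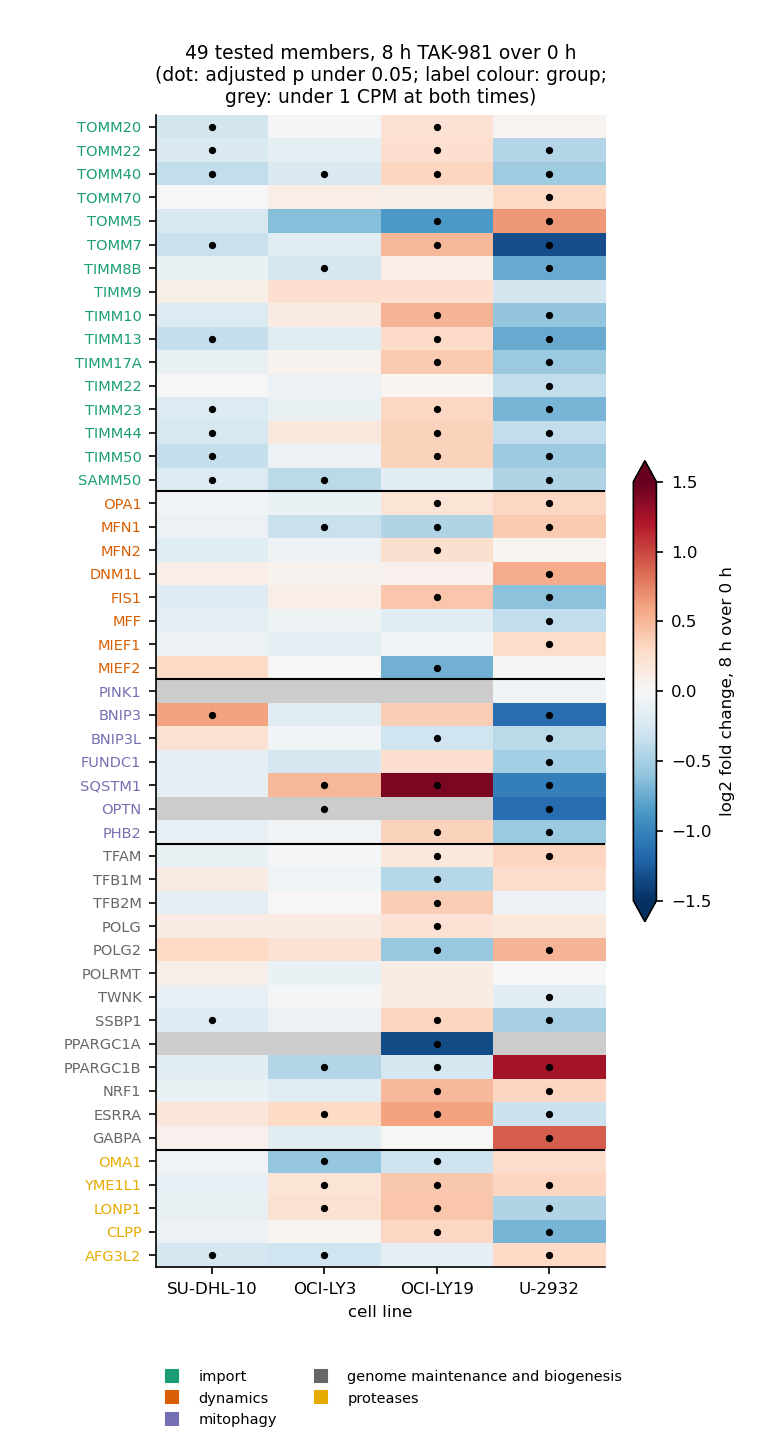
Log2 fold change, 8 h over 0 h with TMM scaling, of the 49 tested members (rows, by group) in the 4 lines (columns), with a black dot where the adjusted p was under 0.05 and grey for the 9 cells under 1 CPM at both times. Of the members, 24 were called higher in OCI-LY19 (9 with spike-in scaling) and 25 were called lower in U-2932 (2 with spike-in scaling). Of 17327 tested genes, spike-in scaling called 2119 higher in OCI-LY19 and 729 lower in U-2932.

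These changes are measured against most other genes of each library, and the sign of the members' median depends on that choice. With TMM scaling the median log2 fold change of the 49 members was -0.28 in U-2932, 0.21 in OCI-LY19, -0.08 in OCI-LY3 and -0.12 in SU-DHL-10. With libraries scaled to the total of 92 added spike-in RNAs it was 0.44, 0.20, 0.17 and 0.02 in the same lines, and without TMM scaling it was -0.03 in OCI-LY19. Spike-in scaling also moved the median of genes at 5 CPM or more, to 0.75 in U-2932, 0.05 in OCI-LY19, 0.25 in OCI-LY3 and 0.12 in SU-DHL-10, against 0.03, 0.06, -0.00 and -0.02 with TMM. Set against that median, 30, 16, 32 and 35 of the 49 members lay below it with spike-in scaling, and 30, 16, 32 and 34 with TMM, in the same order of lines. In U-2932 spike-ins took 0.427% and 0.382% of counts at 8 h, against 0.620% and 0.614% at 0 h. The sources used here do not say how they were dosed, so the words rose and fell below mean a change relative to other genes.

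Single libraries mattered most in SU-DHL-10. There 4 of the 12 calls (TOMM20, TOMM40, TIMM50 and BNIP3) held when each of the 4 libraries of the line was left out in turn, and the count of members that fell was 3 without replicate 1 at 8 h, 5 without replicate 2 at 8 h and 5 without replicate 2 at 0 h. In OCI-LY3, 8 of 12 calls held, and the count that rose was 3 without replicate 1 at 8 h or at 0 h. In OCI-LY19, 20 of 33 held, and the count that fell was 5 without either replicate at 8 h and 4 without replicate 1 at 0 h. In U-2932, 33 of 38 held.

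With TMM scaling most import genes rose in OCI-LY19 and fell in U-2932, where the median was 0.24 with spike-in scaling. In U-2932, 12 of 16 fell and 2 rose, with a median of -0.49. In OCI-LY19, 10 rose and 1 fell, and the median of 0.27 became 0.03 without TMM scaling. In SU-DHL-10, 9 fell and 7 were not called, with a median of -0.21 that was -0.07 with spike-in scaling. In OCI-LY3, 3 fell (TOMM40, TIMM8B and SAMM50) and 13 were not called, with a median of -0.10 that was 0.15 with spike-in scaling.

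TOMM40, the protein-conducting channel of the outer membrane, was the single member called in all 4 lines. It had 142 and 144 CPM at 8 h, against 212 and 201 CPM at 0 h in U-2932. It had 288 and 295 CPM at 8 h, against 352 and 399 CPM at 0 h in SU-DHL-10, and 416 and 422 CPM at 8 h, against 476 and 497 CPM at 0 h in OCI-LY3. In these 3 lines both libraries at 8 h lay below both at 0 h, and the log2 fold changes were -0.53 ± 0.07 (adjusted p = 2.68e-08), -0.36 ± 0.06 (adjusted p = 0.000145) and -0.22 ± 0.06 (adjusted p = 0.0109). In OCI-LY19 it had 409.5 and 399 CPM at 8 h, against 338 and 307 CPM at 0 h, with both treated libraries above both at 0 h, and rose by 0.33 ± 0.06 (adjusted p = 9.57e-05). The OCI-LY3 call was lost without any of 3 of its 4 libraries, and with spike-in scaling TOMM40 stood at 0.20 in U-2932 and 0.04 in OCI-LY3.

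TOMM7, a small subunit that steadies the pore and helps hold PINK1 at the outer membrane, had the largest fall among members at 5 CPM or more in U-2932. It had 43.9 and 44.2 CPM at 8 h, against 113 and 108 CPM at 0 h in U-2932, which is -1.33 ± 0.11 on the log2 scale (adjusted p = 4.95e-12). In OCI-LY19 it had 81.2 and 94.1 CPM at 8 h, against 74.1 and 49.6 CPM at 0 h. There the treated libraries were above both at 0 h, the 2 at 0 h were far apart, and the change was 0.50 ± 0.11 (adjusted p = 0.000348), which lost its call without replicate 2 at 0 h. TOMM7 was one of the 2 members called lower in U-2932 with spike-in scaling as well. Its promoter, shown above, holds 2 NRF1 matches.

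The receptors that first bind incoming proteins had mixed changes. TOMM20, a presequence receptor, had 304 and 296 CPM at 8 h, against 369 and 355 CPM at 0 h in SU-DHL-10 and fell there (-0.27 ± 0.06, adjusted p = 0.00162). It had 432 and 447 CPM at 8 h, against 379 and 378 CPM at 0 h in OCI-LY19, where it rose by 0.22 ± 0.06, a call lost without replicate 2 at 8 h and a value of -0.02 without TMM scaling. TOMM20 stood at 0.04 ± 0.06 in U-2932 and -0.03 ± 0.06 in OCI-LY3 and did not pass the test there. TOMM22, the central receptor, was called at 0.26 ± 0.07 in OCI-LY19, -0.44 ± 0.07 in U-2932 and -0.21 ± 0.07 in SU-DHL-10, the last lost without any of 3 of its 4 libraries. TOMM70, the receptor for carrier proteins, had 189 and 179 CPM at 8 h, against 150.5 and 148 CPM at 0 h in U-2932 and rose there by 0.30 ± 0.07 (adjusted p = 0.000512), against the direction of most import genes, and its change was not shown to differ between lines (adjusted p = 0.0631). TOMM5 was scarce, with 3.35 and 3.47 CPM at 8 h, against 6.82 and 5.56 CPM at 0 h in OCI-LY19 and 5.36 and 4.57 CPM at 8 h, against 3.07 and 3.27 CPM at 0 h in U-2932. It was called lower in OCI-LY19 (-0.86 ± 0.24) and higher in U-2932 (0.65 ± 0.25), and both calls were lost when single libraries were left out.

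The 9 TIM genes act in the intermembrane space and inner membrane. With TMM scaling all 9 had fold changes above 0 in OCI-LY19, from 0.03 to 0.51 with 6 called, and all 9 had fold changes below 0 in U-2932, from -0.76 to -0.28 with 8 called, of which 6 had positive values with spike-in scaling. TIMM10, a chaperone that carries membrane proteins across the intermembrane space, had 64.9 and 61.1 CPM at 8 h, against 48.9 and 39.7 CPM at 0 h in OCI-LY19 and 33.7 and 33.2 CPM at 8 h, against 53.2 and 47.5 CPM at 0 h in U-2932. Its groups did not overlap in either line, and it rose by 0.51 ± 0.09 in OCI-LY19 (adjusted p = 1.34e-05) and stood at -0.59 ± 0.09 in U-2932 (adjusted p = 1.34e-06). The other small TIM chaperones followed it in U-2932, with TIMM13 at -0.76 ± 0.08, TIMM8B at -0.76 ± 0.07 and TIMM9 at -0.28 ± 0.15, and TIMM9 passed the test in none of the 4 lines.

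The presequence translocase of the inner membrane showed the same contrast. TIMM23, its channel subunit, had 73.1 and 74.8 CPM at 8 h, against 127 and 112 CPM at 0 h in U-2932 and 91.9 and 92.2 CPM at 8 h, against 76.3 and 72.6 CPM at 0 h in OCI-LY19. The treated libraries were lower than both at 0 h in U-2932 (-0.69 ± 0.07, adjusted p = 2.74e-10) and higher in OCI-LY19 (0.31 ± 0.07, adjusted p = 0.000578). Its near-identical copy TIMM23B averaged 14.4 CPM at 8 h, against 13.1 CPM at 0 h, in U-2932 (0.13, adjusted p = 0.43), so how reads were shared between the copies makes TIMM23 uncertain. TIMM17A, the partner of TIMM23 in the channel, had 71.4 and 72.6 CPM at 8 h, against 102 and 109 CPM at 0 h in U-2932 and 123 and 131 CPM at 8 h, against 107 and 85.8 CPM at 0 h in OCI-LY19. It stood at -0.56 ± 0.08 (adjusted p = 2.7e-07) and 0.40 ± 0.08 (adjusted p = 6.6e-05) in these lines, again without overlap between times. TIMM50, the receptor of the complex, had 126 and 135 CPM at 8 h, against 160.3 and 174 CPM at 0 h in SU-DHL-10. It fell there (-0.36 ± 0.07, adjusted p = 0.000339) and in U-2932 (-0.55 ± 0.07), and rose in OCI-LY19 (0.35 ± 0.07). TIMM13 in SU-DHL-10 had 111 and 116 CPM at 8 h, against 144 and 146 CPM at 0 h, a change of -0.35 ± 0.08 (adjusted p = 0.00283) that was lost without replicate 1 at 8 h. TIMM44, which ties the import motor to the channel, was called in the same 3 lines as TIMM50 with the same signs (-0.24 ± 0.07, 0.35 ± 0.07 and -0.36 ± 0.07 in SU-DHL-10, OCI-LY19 and U-2932). With spike-in scaling TIMM44 was called higher in U-2932 (0.36, adjusted p = 0.0358), the opposite of its TMM call there. TIMM22, the channel for carrier proteins, was called in U-2932 (-0.37 ± 0.09) and stood between -0.09 and 0.03 elsewhere.

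SAMM50, which folds beta-barrel proteins into the outer membrane, was lower at 8 h in each line with TMM scaling and stood at 0.27 in U-2932 with spike-in scaling. It had 88.8 and 86.1 CPM at 8 h, against 113 and 119 CPM at 0 h in OCI-LY3, a change of -0.41 ± 0.07 (adjusted p = 2.31e-05). It had 79.6 and 84.9 CPM at 8 h, against 117 and 108 CPM at 0 h in U-2932 (-0.45 ± 0.07, adjusted p = 1.25e-06), 89.5 and 88.7 CPM at 8 h, against 99.6 and 105 CPM at 0 h in SU-DHL-10 (-0.20 ± 0.07, adjusted p = 0.0496), and 71.3 and 73.4 CPM at 8 h, against 81.8 and 80.5 CPM at 0 h in OCI-LY19 (-0.17 ± 0.07, adjusted p = 0.0602). In all 4 lines both libraries at 8 h were below both at 0 h, but the SU-DHL-10 value lost its call when single libraries were left out and the OCI-LY19 value did not pass the test.

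**Figure D2:**
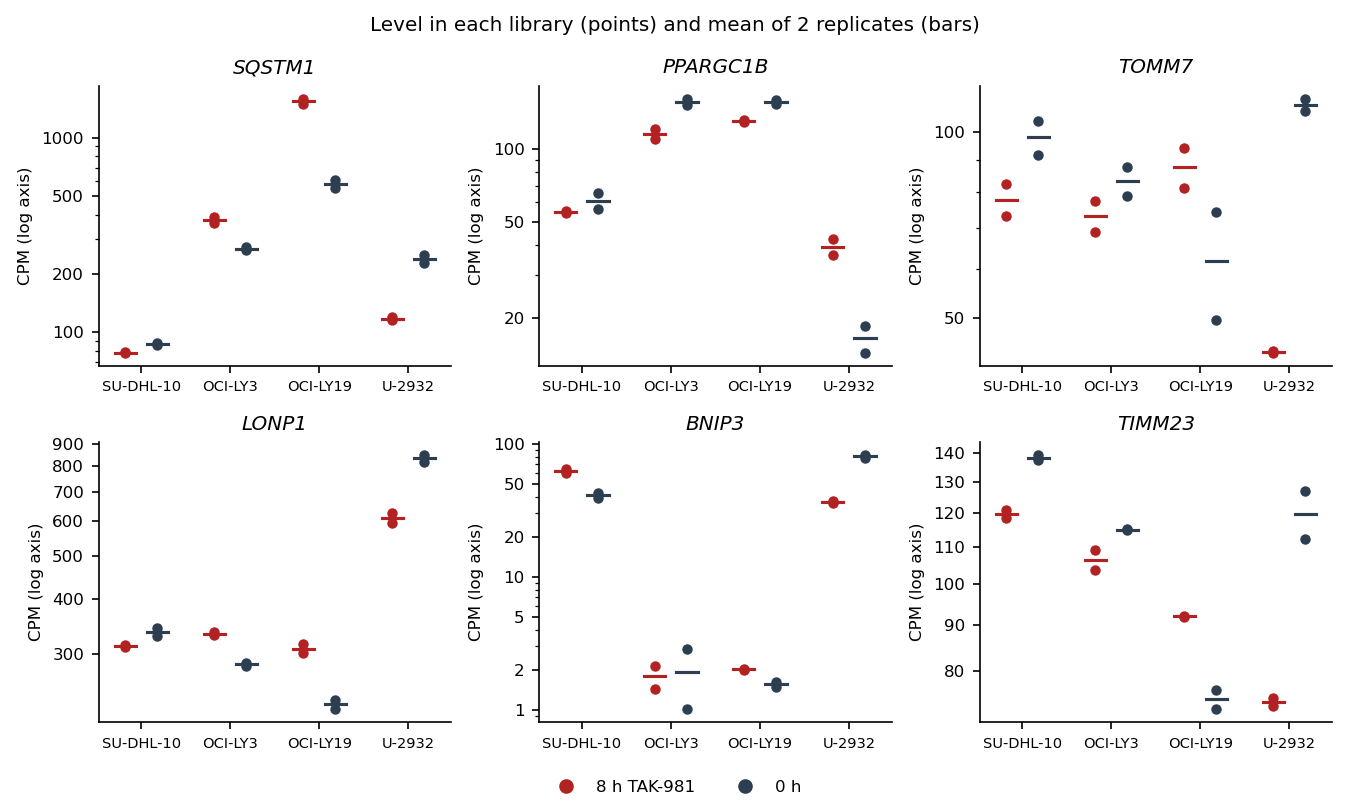
CPM on a log axis in each of the 16 libraries for the 6 members with the smallest p of the difference between lines, with 8 h (red) left of 0 h (dark) in each line and bars at the mean of 2 replicates. In U-2932 the treated libraries lie below those at 0 h for 5 of the 6 genes and above them for PPARGC1B.

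In U-2932 and OCI-LY19, genes of fusion and fission were called in both directions. In U-2932, 4 of 8 rose (OPA1, MFN1, DNM1L and MIEF1) and 2 fell (FIS1 and MFF), with a median of 0.16 that was 0.88 with spike-in scaling. In OCI-LY19, 3 rose (OPA1, MFN2 and FIS1) and 2 fell (MFN1 and MIEF2), and the median of 0.01 became -0.22 without TMM scaling. In OCI-LY3 MFN1 alone was called. The shares called were 75% in U-2932, 62.5% in OCI-LY19 and 12.5% in OCI-LY3, against 50.9%, 39.4% and 25.5% of all tested genes. In SU-DHL-10 the 8 genes lay between -0.19 and 0.30, and 0 were called by edgeR's quasi-likelihood test, 2 at an unadjusted p under 0.05 and 1 by DESeq2.

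DNM1L, the GTPase that divides mitochondria, had 131 and 122 CPM at 8 h, against 83.5 and 88.3 CPM at 0 h in U-2932. Both libraries at 8 h were higher than both at 0 h, with a change of 0.55 ± 0.07 (adjusted p = 6.66e-08), and in the other lines it stood at 0.05 to 0.10 and was not called. The adaptors that recruit it did not move alike. FIS1 had 51.2 and 52.6 CPM at 8 h, against 81.5 and 77.4 CPM at 0 h in U-2932 and 72.7 and 72.6 CPM at 8 h, against 58.2 and 51.1 CPM at 0 h in OCI-LY19, and stood at -0.61 ± 0.08 (adjusted p = 1.14e-07) and 0.41 ± 0.08 (adjusted p = 0.000113). MFF fell in U-2932 (-0.37 ± 0.08), where MIEF1 rose (0.28 ± 0.07). MIEF2, at 2.39 to 6.43 CPM in all libraries, was called in OCI-LY19 alone (-0.72 ± 0.25), and the call was lost without replicate 2 at 8 h or replicate 1 at 0 h.

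The 2 mitofusins, which join outer membranes, had opposite calls in OCI-LY19. MFN1 had 94.3 and 93.4 CPM at 8 h, against 69.6 and 73.3 CPM at 0 h in U-2932, 82.6 and 86.3 CPM at 8 h, against 112 and 118 CPM at 0 h in OCI-LY19 and 90.4 and 89.5 CPM at 8 h, against 109 and 118 CPM at 0 h in OCI-LY3. The treated libraries were above those at 0 h in U-2932 (0.39 ± 0.07, adjusted p = 1.83e-05) and below them in OCI-LY19 (-0.45 ± 0.07, adjusted p = 2.89e-06) and OCI-LY3 (-0.34 ± 0.07, adjusted p = 0.000361). MFN2 had 300.0 and 291 CPM at 8 h, against 245 and 254 CPM at 0 h in OCI-LY19, rose there (0.24 ± 0.06, adjusted p = 0.0024) and was not called elsewhere. OPA1, which fuses inner membranes, had 172 and 169 CPM at 8 h, against 132 and 142 CPM at 0 h in U-2932 and 172 and 185 CPM at 8 h, against 144 and 166 CPM at 0 h in OCI-LY19. It rose by 0.32 ± 0.07 in U-2932 (adjusted p = 0.000332) and by 0.21 ± 0.07 in OCI-LY19 (adjusted p = 0.0192), the second being -0.03 without TMM scaling and lost without replicate 2 at 8 h or replicate 1 at 0 h.

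With TMM scaling most mitophagy genes fell in U-2932, where the median was 0.17 with spike-in scaling. There 6 of 7 fell, with a median of -0.56, and of these 6 BNIP3L, FUNDC1 and PHB2 had positive values with spike-in scaling. In OCI-LY19, SQSTM1 and PHB2 rose and BNIP3L fell, in OCI-LY3 SQSTM1 and OPTN rose, and in SU-DHL-10 BNIP3 rose, with the other members not called in these lines. The mitophagy genes called were 85.7% in U-2932, 42.9% in OCI-LY19, 28.6% in OCI-LY3 and 14.3% in SU-DHL-10. The shares over all tested genes were 50.9%, 39.4%, 25.5% and 12.6% in the same order.

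SQSTM1, the adaptor p62 that links ubiquitinated cargo to autophagosomes, had the smallest p of the difference between lines among the members (adjusted p = 8.91e-20). It had 1584 and 1497 CPM at 8 h, against 609 and 548 CPM at 0 h in OCI-LY19 and 364 and 392 CPM at 8 h, against 264 and 273 CPM at 0 h in OCI-LY3. It had 115 and 119 CPM at 8 h, against 250.1 and 227 CPM at 0 h in U-2932, and 78.9 and 78.3 CPM at 8 h, against 88.0 and 86.0 CPM at 0 h in SU-DHL-10. The treated libraries were higher in OCI-LY19 (1.41 ± 0.06, adjusted p = 1.19e-18) and OCI-LY3 (0.50 ± 0.06, adjusted p = 2.42e-07) and lower in U-2932 (-1.02 ± 0.07, adjusted p = 1.28e-14), while the SU-DHL-10 value did not pass the test (-0.15 ± 0.07). Of the members at 5 CPM or more, SQSTM1 had the largest rise in OCI-LY19.

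BNIP3 and BNIP3L are related outer membrane receptors that hand mitochondria to autophagy, the first being a known target of the hypoxia response. BNIP3 had 64.6 and 59.9 CPM at 8 h, against 39.3 and 42.3 CPM at 0 h in SU-DHL-10 and 35.7 and 36.9 CPM at 8 h, against 78.3 and 82.3 CPM at 0 h in U-2932. It rose by 0.61 ± 0.11 in SU-DHL-10 (adjusted p = 0.000247) and fell in U-2932 (-1.15 ± 0.11, adjusted p = 1.82e-10), in both with no overlap between times, and in U-2932 it was also called lower with spike-in scaling. In OCI-LY3 and OCI-LY19 BNIP3 was scarce, at 1.01 to 2.86 CPM, and was not called. BNIP3L had 26.1 and 24.4 CPM at 8 h, against 31.7 and 35.2 CPM at 0 h in U-2932 and 62.4 and 60.9 CPM at 8 h, against 75.0 and 76.9 CPM at 0 h in OCI-LY19. It was the single member called lower in both lines (-0.40 ± 0.09, adjusted p = 0.000359, and -0.30 ± 0.08, adjusted p = 0.00319), the U-2932 value being 0.32 with spike-in scaling, and stood at -0.04 ± 0.08 in OCI-LY3 and 0.23 ± 0.09 in SU-DHL-10.

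PINK1, the kinase that marks depolarised mitochondria, was near the limit of detection. It had 3.11 and 2.13 CPM at 8 h, against 3.24 and 2.25 CPM at 0 h in U-2932 and at most 0.740 CPM in the libraries of the other lines, and it was not called in any of the 4 lines (-0.06 ± 0.41 in U-2932). OPTN, another autophagy adaptor, had 23.5 and 22.5 CPM at 8 h, against 50.4 and 51.2 CPM at 0 h in U-2932 and fell there (-1.14 ± 0.14, adjusted p = 2.45e-08). In OCI-LY3 it had 20 and 14 counts at 8 h, against 2 and 0 counts at 0 h, a ratio of 14.2 with a 95% exact counting interval of 3.63 to 122 and an adjusted p of 0.000174. OPTN stayed under 1 CPM there, and in SU-DHL-10 and OCI-LY19 it had at most 3 counts in a library. FUNDC1, a further receptor, was called in U-2932 alone (-0.51 ± 0.13), a call lost without replicate 2 at 0 h. PHB2, an inner membrane prohibitin that can act as a receptor, had 294 and 306 CPM at 8 h, against 456 and 426 CPM at 0 h in U-2932 and 622 and 586 CPM at 8 h, against 489 and 460.5 CPM at 0 h in OCI-LY19, with changes of -0.56 ± 0.06 (adjusted p = 5.94e-09) and 0.35 ± 0.06 (adjusted p = 3.27e-05).

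Of the 13 genes of genome maintenance and biogenesis, 5 rose and 3 fell in U-2932, and 6 rose and 4 fell in OCI-LY19. The median was 0.27 in U-2932 and 0.12 in OCI-LY19, the second being -0.12 without TMM scaling. OCI-LY3 had 1 call in each direction (ESRRA higher, PPARGC1B lower), and SU-DHL-10 had 1 call (SSBP1 lower). The shares called were 61.5% in U-2932, 76.9% in OCI-LY19, 15.4% in OCI-LY3 and 7.69% in SU-DHL-10. Over all tested genes they were 50.9%, 39.4%, 25.5% and 12.6% in the same order. PPARGC1B, a coactivator of nuclear receptors that promotes mitochondrial gene expression, had 42.4 and 36.6 CPM at 8 h, against 14.4 and 18.7 CPM at 0 h in U-2932. It had 120.0 and 109 CPM at 8 h, against 161 and 151 CPM at 0 h in OCI-LY3 and 129 and 131 CPM at 8 h, against 159 and 153 CPM at 0 h in OCI-LY19. The treated libraries were higher in U-2932 (1.25 ± 0.10, adjusted p = 4.37e-12) and lower in OCI-LY3 (-0.44 ± 0.08, adjusted p = 9.79e-05) and OCI-LY19 (-0.26 ± 0.08, adjusted p = 0.01, lost without any of 3 of its 4 libraries). U-2932 at 8 h held less PPARGC1B than OCI-LY3 or OCI-LY19 at either time. PPARGC1A, its better known relative, had 1.35 and 1.85 CPM at 8 h, against 3.67 and 4.43 CPM at 0 h in OCI-LY19, a ratio of 0.394 with a 95% exact counting interval of 0.295 to 0.523. It was called there (-1.34 ± 0.45, adjusted p = 0.0185), the call was lost without any of 3 of its 4 libraries, and in the other lines it stood under 1 CPM. The intervals of these 2 ratios cover counting error only.

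The DNA-binding factors did not follow a single pattern. GABPA, the DNA-binding subunit of NRF2/GABP, had 91.4 and 86.4 CPM at 8 h, against 48.3 and 46.5 CPM at 0 h in U-2932. Both treated libraries were far above both at 0 h (0.91 ± 0.09, adjusted p = 6.04e-11), and in the other lines GABPA stood between -0.16 and 0.07 and was not called. NRF1 had 30.6 and 31.4 CPM at 8 h, against 26.3 and 23.4 CPM at 0 h in U-2932 and 25.5 and 24.8 CPM at 8 h, against 18.2 and 17.8 CPM at 0 h in OCI-LY19. It rose in both, by 0.32 ± 0.10 (adjusted p = 0.00648) and 0.48 ± 0.10 (adjusted p = 0.00023), and the U-2932 call was lost without replicate 2 at 0 h. ESRRA, an orphan nuclear receptor that partners the coactivators, had 175 and 178 CPM at 8 h, against 137 and 95.2 CPM at 0 h in OCI-LY19, 164 and 159 CPM at 8 h, against 131 and 131 CPM at 0 h in OCI-LY3 and 69.4 and 71.0 CPM at 8 h, against 81.4 and 93.5 CPM at 0 h in U-2932. It rose in OCI-LY19 (0.61 ± 0.10, adjusted p = 3.38e-06) and OCI-LY3 (0.30 ± 0.10, adjusted p = 0.0166) and fell in U-2932 (-0.32 ± 0.10, adjusted p = 0.00792). The OCI-LY3 and U-2932 calls were lost when single libraries were left out. With spike-in scaling ESRRA was called higher in U-2932 (0.41, adjusted p = 0.0204), the opposite of its TMM call there.

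For the genes that maintain and transcribe mitochondrial DNA, called changes lay between -0.56 and 0.51. TFAM, which packages the genome and starts its transcription, had 145 and 146 CPM at 8 h, against 111 and 121 CPM at 0 h in U-2932 and 218 and 219.9 CPM at 8 h, against 204 and 188 CPM at 0 h in OCI-LY19. It rose in U-2932 (0.32 ± 0.07, adjusted p = 0.000117) and narrowly in OCI-LY19 (0.16 ± 0.06, adjusted p = 0.0481), where the call was lost without single libraries and the value was -0.08 without TMM scaling. POLG, the catalytic subunit of the mitochondrial DNA polymerase, had 124 and 119 CPM at 8 h, against 111 and 98.5 CPM at 0 h in OCI-LY19. Both lay just above those at 0 h (0.21 ± 0.08, adjusted p = 0.0251; -0.03 without TMM scaling; lost without replicate 1 at 8 h or replicate 2 at 0 h), and the changes of POLG in the 4 lines were not shown to differ (adjusted p = 0.846). Its accessory subunit POLG2 had 18.7 and 19.7 CPM at 8 h, against 30.9 and 25.9 CPM at 0 h in OCI-LY19 and 33.7 and 32.6 CPM at 8 h, against 22.2 and 24.4 CPM at 0 h in U-2932. POLG2 fell in OCI-LY19 (-0.56 ± 0.11, adjusted p = 0.000139) and rose in U-2932 (0.51 ± 0.11, adjusted p = 0.000282). SSBP1, the single-strand binding protein, rose in OCI-LY19 (0.33 ± 0.06) and fell in U-2932 (-0.50 ± 0.06) and SU-DHL-10 (-0.19 ± 0.06, lost without any 1 of its 4 libraries). Of the transcription factors, TFB2M rose in OCI-LY19 (0.36 ± 0.08) and the related methyltransferase TFB1M fell there (-0.42 ± 0.12, lost without replicate 1 at either time). The helicase TWNK was called lower in U-2932 at -0.17 ± 0.07, a call lost without any 1 of the line's 4 libraries. With spike-in scaling TWNK was called higher there (0.56, adjusted p = 0.00104). POLRMT, the mitochondrial RNA polymerase, stood between -0.10 and 0.12 with TMM scaling and was then not called in any of the 4 lines.

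Of the 5 proteases, 2 rose and 2 fell in U-2932, 3 rose and 1 fell in OCI-LY19, 2 rose and 2 fell in OCI-LY3, and AFG3L2 alone was called in SU-DHL-10. The shares called were 80% in U-2932, OCI-LY19 and OCI-LY3 and 20% in SU-DHL-10. Over all tested genes they were 50.9%, 39.4%, 25.5% and 12.6% in the same order. The 2 matrix enzymes had opposite calls in U-2932 and OCI-LY19. LONP1, which degrades oxidised and misfolded matrix proteins and TFAM, had 596 and 626 CPM at 8 h, against 849 and 821 CPM at 0 h in U-2932. It had 317 and 301 CPM at 8 h, against 225 and 237 CPM at 0 h in OCI-LY19 and 331 and 337 CPM at 8 h, against 283 and 286 CPM at 0 h in OCI-LY3. The treated libraries were lower in U-2932 (-0.45 ± 0.06, adjusted p = 4.7e-08; 0.28 with spike-in scaling) and higher in OCI-LY19 (0.42 ± 0.06, adjusted p = 4.91e-07) and OCI-LY3 (0.23 ± 0.06, adjusted p = 0.00312). CLPP, the peptidase of the matrix ClpXP complex, had 98.7 and 100.2 CPM at 8 h, against 170.4 and 152 CPM at 0 h in U-2932 and 87.0 and 80.9 CPM at 8 h, against 62.6 and 72.6 CPM at 0 h in OCI-LY19, with changes of -0.70 ± 0.07 (adjusted p = 8.41e-10; 0.03 with spike-in scaling) and 0.31 ± 0.08 (adjusted p = 0.00116; lost without replicate 1 at 0 h). OMA1 and YME1L1 both cut OPA1, the first under stress. OMA1 had 17.3 and 16.5 CPM at 8 h, against 25.1 and 25.6 CPM at 0 h in OCI-LY3, fell there (-0.58 ± 0.11, adjusted p = 0.000178) and was called in OCI-LY19 (-0.31 ± 0.12) with a call lost without any 1 of its 4 libraries. YME1L1 rose in OCI-LY3 (0.21 ± 0.06, lost without replicate 1 at either time), OCI-LY19 (0.40 ± 0.06) and U-2932 (0.33 ± 0.06). AFG3L2, a subunit of the matrix-facing AAA protease, fell in SU-DHL-10 (-0.26 ± 0.07, lost without single libraries) and OCI-LY3 (-0.30 ± 0.07) and rose in U-2932 (0.30 ± 0.07).

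**Figure D3:**
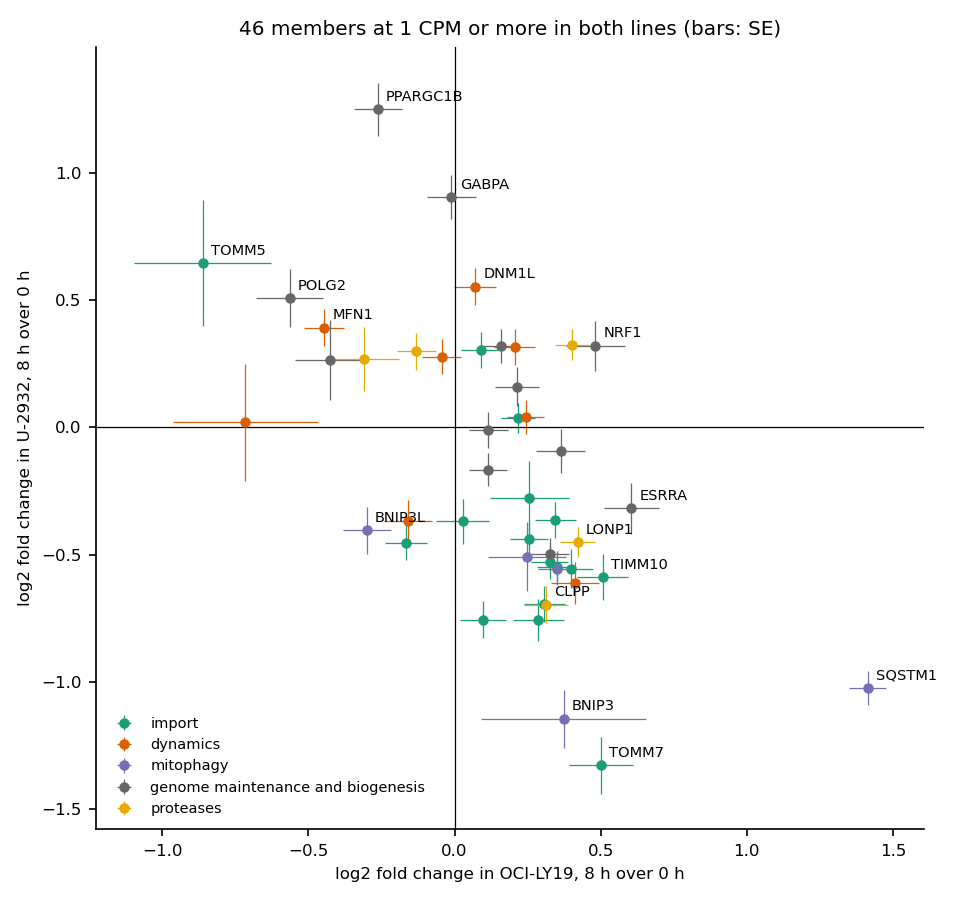
Log2 fold change at 8 h over 0 h with TMM scaling in OCI-LY19 (x axis) and U-2932 (y axis) for the 46 members at 1 CPM or more in both lines, with SE bars and colours for the 5 groups. The lower right field, higher in OCI-LY19 and lower in U-2932, holds 16 members called in both lines, and the upper left field holds 4; with spike-in scaling 2 members, TOMM7 and BNIP3, were called lower in U-2932.

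OCI-LY19 and U-2932, which share no samples, often moved apart. With TMM scaling 16 members were called higher in OCI-LY19 and lower in U-2932: 9 import genes (TOMM22, TOMM40, TOMM7, TIMM10, TIMM13, TIMM17A, TIMM23, TIMM44 and TIMM50), FIS1, SQSTM1, PHB2, SSBP1, ESRRA, LONP1 and CLPP. Of all tested genes, 8.11% were called higher in OCI-LY19 and lower in U-2932 and 6.26% the other way. With spike-in scaling TOMM7 alone among the members was called higher in OCI-LY19 and lower in U-2932. That scaling called 2119 of the 17327 tested genes higher in OCI-LY19 and 729 lower in U-2932, and the share with both calls was not counted. It called ESRRA higher in both lines and TIMM44 higher in U-2932. With TMM scaling TOMM5, MFN1, POLG2 and PPARGC1B were lower in OCI-LY19 and higher in U-2932, while OPA1, YME1L1, TFAM and NRF1 rose in both and BNIP3L fell in both. Of the 16, 8 also fell in SU-DHL-10 with TMM scaling (TOMM22, TOMM40, TOMM7, TIMM13, TIMM23, TIMM44, TIMM50 and SSBP1). In that line 6.27% of all tested genes were called lower. The share of all tested genes with the same calls in these lines was not counted. Of these 8 calls in SU-DHL-10, those of TOMM40 and TIMM50 held when each library of the line was left out in turn, and the other 6 did not. For the 15 of these 16 genes with a promoter in the table, 9 held the ETS letters and 8 the NRF1 letters, against 9 and 14 of the other 27 members and the 21.5% and 24.1% of tested genes given above. The 6 members with the smallest p of the difference between lines were SQSTM1 (adjusted p = 8.91e-20), PPARGC1B (4.29e-12), TOMM7 (1.15e-10), LONP1 (2.73e-10), BNIP3 (3.5e-10) and TIMM23 (3.23e-09). The difference was not called for TOMM70, TIMM9, MFF, MIEF2, PINK1, POLG, POLRMT and PPARGC1A. With spike-in scaling the difference was called for 25 of the 49, against 8570 of the 17327 tested genes.

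Averaged over the 4 lines, few members passed. In a fit of line and time together, 2 of 49 members were called, both lower, against 18.1% of all tested genes (10% higher and 8.09% lower). These were SAMM50 (-0.31 ± 0.06, adjusted p = 0.00234; not called with spike-in scaling) and MFF (-0.18 ± 0.06, adjusted p = 0.0488). MFF was no longer called once any 1 of the 16 libraries or any 1 line was left out, and stood at 0.09 with spike-in scaling. On the lower side TIMM8B (-0.25 ± 0.09, adjusted p = 0.0712) and TIMM13 (-0.25 ± 0.11, adjusted p = 0.134) came next. The members nearest the threshold on the higher side were YME1L1 (0.20 ± 0.07, adjusted p = 0.0548), POLG (0.15 ± 0.06, adjusted p = 0.0739), DNM1L (0.19 ± 0.07, adjusted p = 0.0815) and TOMM70 (0.12 ± 0.06, adjusted p = 0.17). The count depended on the model. The mean of the 4 line contrasts called 26 members, 10 higher and 16 lower, against 3709 higher and 3396 lower of the 17327 tested genes. Spike-in scaling called 10 members across lines, all higher, against 3991 higher and 286 lower of the 17327 tested genes. The count also depended on the lines included. Without OCI-LY19 1 member was called higher and 9 lower, against 1560 and 1350 of 16702 tested genes. Without U-2932 2 were higher and 6 lower, against 1860 and 1593 of 15741 tested genes. In the fit of all 4 lines the members' share was 4.08%, and whether it differs from that of all tested genes was not tested.

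The lines also differed before treatment. At 0 h, 47 of 49 members differed between lines (test with 3 degrees of freedom), against 87.3% of all tested genes, and TIMM9 (adjusted p = 0.111) and MIEF2 (adjusted p = 0.331) did not pass. LONP1 averaged 835 ± 20.3 CPM in U-2932 (SD, n = 2, as for the means that follow), 337 ± 9.39 in SU-DHL-10, then 284 ± 2.37 in OCI-LY3, and the lowest mean, 231 ± 8.06, in OCI-LY19. SQSTM1 was highest in OCI-LY19 (578 ± 43.4 CPM), next in OCI-LY3 (268 ± 6.57) and U-2932 (238 ± 16.5), and lowest in SU-DHL-10 (87.0 ± 1.36). BNIP3 averaged 80.3 ± 2.87 CPM in U-2932 and 40.8 ± 2.12 in SU-DHL-10, but 1.94 ± 1.31 in OCI-LY3 and 1.56 ± 0.107 in OCI-LY19. OPTN was almost confined to U-2932 among these 4 lines, with 50.8 ± 0.561 CPM there and at most 0.143 CPM in a library of the others at 0 h. PPARGC1B ran the other way, with 156 ± 7.07 CPM in OCI-LY3 and 156 ± 3.86 in OCI-LY19, then 61.0 ± 6.92 in SU-DHL-10, and the lowest mean, 16.5 ± 3.02, in U-2932. The first 2 of these PPARGC1B means lie within their spread of each other, as do the BNIP3 means of OCI-LY3 and OCI-LY19. TIMM50 stood highest in U-2932 (319.7 ± 15.3 CPM) and lowest in OCI-LY19 (157 ± 4.39), the 2 lines in which it then moved in opposite directions. TFB1M, the mitochondrial rRNA methyltransferase, was lowest in U-2932 (7.10 ± 1.63 CPM) and highest in OCI-LY3 (31.8 ± 4.71).

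Other genes of the same pathways were examined to set the members in context. Of 105 listed by role, 103 were tested. Their counts and values are with TMM scaling unless stated otherwise. Spike-in scaling moved the median of genes at 5 CPM or more in U-2932 from 0.03 to 0.75, so falls there are relative to other genes. In U-2932, 32 rose and 38 fell (68% called, against 50.9% of all tested genes), and in OCI-LY19 30 rose and 17 fell (45.6%, against 39.4%). In OCI-LY3 10 rose and 7 fell (16.5%, against 25.5%), and in SU-DHL-10 1 rose and 8 fell (8.74%, against 12.6%). The shares of called genes were thus below those of the members in each line, and in OCI-LY3 and SU-DHL-10 also below those of all tested genes. Across lines 9 rose and 4 fell (12.6%, against 18.1% of all tested genes). The change differed between lines for 71 of the 103, against 53.5% of all tested genes. ROMO1, a small inner membrane protein, had 25.9 ± 2.79 CPM at 8 h, against 93.5 ± 8.54 CPM at 0 h in U-2932 (SD, n = 2) and fell by far more than any TIM gene (-1.85 ± 0.12, adjusted p = 3.93e-15), whereas it rose in OCI-LY19 (0.63 ± 0.12). CHCHD6, a subunit of the MICOS complex that shapes cristae, did likewise (-1.11 ± 0.15 in U-2932 and 1.05 ± 0.15 in OCI-LY19), and its value in SU-DHL-10 (-0.93 ± 0.29) lost its call without single libraries. The metaxin MTX3 rose in U-2932 (1.10 ± 0.12, adjusted p = 1.2e-09), where MTX1 fell (-0.77 ± 0.11), and MTX1 was also lower across lines (-0.35 ± 0.09), a call lost without OCI-LY3 or with spike-in scaling. IMMP2L, a subunit of the inner membrane peptidase, rose in OCI-LY19 (1.11 ± 0.23).

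Some of these pathway genes also moved in opposite directions. RRM2B, a ribonucleotide reductase subunit that supplies precursors for mitochondrial DNA, had 41.1 ± 0.339 CPM at 8 h, against 18 ± 3.51 CPM at 0 h in U-2932, 99.1 ± 4.79 CPM at 8 h, against 193 ± 7.31 CPM at 0 h in OCI-LY3 and 69.3 ± 4.0 CPM at 8 h, against 134 ± 4.58 CPM at 0 h in OCI-LY19. It rose in U-2932 (1.18 ± 0.10, adjusted p = 6.77e-12) and fell in OCI-LY3 (-0.96 ± 0.08) and OCI-LY19 (-0.95 ± 0.08). LACTB, a filament-forming protein of the intermembrane space, had 28.5 ± 0.607 CPM at 8 h, against 11.2 ± 1.48 CPM at 0 h in OCI-LY3 and 28.9 ± 1.39 CPM at 8 h, against 11 ± 1.65 CPM at 0 h in OCI-LY19, with rises of 1.35 ± 0.15 and 1.39 ± 0.15 and a mean change of 0.74 ± 0.20 across lines that lost its call without either of them or without OCI-LY3 replicate 1 at 0 h. PPTC7, a mitochondrial phosphatase known to restrain BNIP3 and BNIP3L, rose in OCI-LY19 (1.01 ± 0.07), OCI-LY3 (0.84 ± 0.07) and U-2932 (0.50 ± 0.07) and across lines (0.56 ± 0.12, adjusted p = 0.00395; lost without OCI-LY3). MUL1, an outer membrane ligase for ubiquitin and SUMO, was lower across lines (-0.36 ± 0.07, adjusted p = 0.00276), with calls in U-2932 (-0.61 ± 0.10) and SU-DHL-10 (-0.39 ± 0.09, lost without replicate 2 at 8 h or replicate 1 at 0 h); with spike-in scaling it stood at -0.09 across lines and was not called. TRAK1, which ties mitochondria to kinesin motors, fell in SU-DHL-10 (-0.29 ± 0.07), OCI-LY3 (-0.60 ± 0.07) and OCI-LY19 (-0.66 ± 0.07) and rose in U-2932 (0.38 ± 0.07), PRIMPOL, a primase-polymerase, fell in OCI-LY19 (-0.71 ± 0.17), and MGME1, a nuclease of mitochondrial DNA, was higher in SU-DHL-10 (0.25 ± 0.07) with a call lost without any 1 of its 4 libraries.

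Gene length went along with the change in U-2932. Over the 49 members, Spearman's rho between the log2 fold change and the span of the gene in RefSeq was 0.55 in U-2932, -0.34 in OCI-LY19, -0.10 in OCI-LY3 and 0.18 in SU-DHL-10. Over the members at 5 CPM or more, rho was 0.60 in U-2932 (46 members), -0.41 in OCI-LY19 (43), -0.17 in OCI-LY3 (43) and 0.18 in SU-DHL-10 (45). Over all protein-coding genes at 5 CPM or more, rho was 0.49 in U-2932 (9493 genes), -0.11 in OCI-LY19 (8761), -0.04 in OCI-LY3 (8700) and 0.17 in SU-DHL-10 (8611). These are correlations across genes of the same libraries, which are not independent replicates, and are given as a description. TIMM13 and TIMM10, which fell in U-2932 with TMM scaling, span 1.96 kb and 2.29 kb, and GABPA, DNM1L and PPARGC1B, which rose, span 37.5 kb, 66.4 kb and 128 kb. Other members went against this order: SAMM50 (41.1 kb), OPTN (38.2 kb) and SQSTM1 (31.7 kb) fell, and TOMM5 (4.18 kb) rose. The part of gene length in the changes was not tested.

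**Figure D4:**
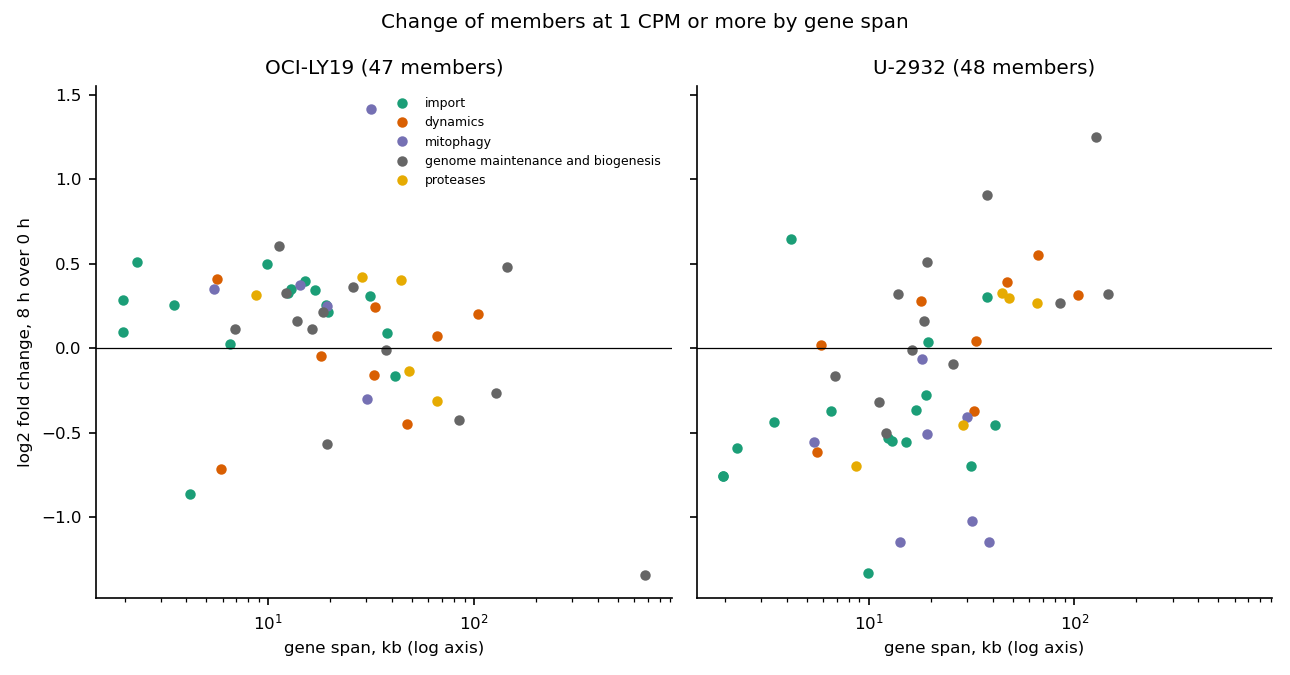
Log2 fold change at 8 h over 0 h with TMM scaling (y axis) against the span of the gene in kb on a log axis, for the 47 members at 1 CPM or more in OCI-LY19 (left) and the 48 in U-2932 (right), coloured by group. In U-2932 short genes tend to lie lower and long genes higher. Spearman's rho there was 0.55 over the 49 tested members, with PPARGC1A not plotted, and 0.60 over the 46 at 5 CPM or more.

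**Figure D5:**
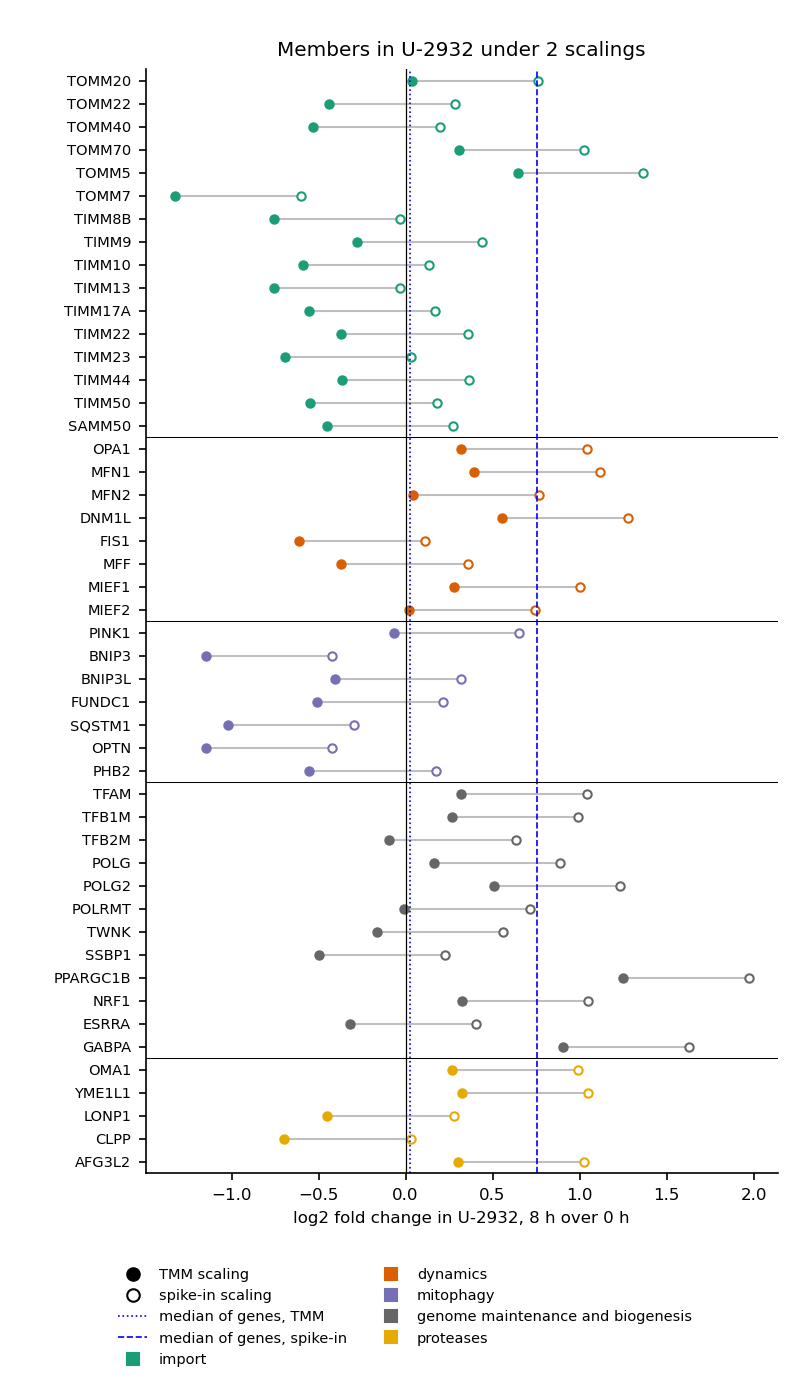
Log2 fold change at 8 h over 0 h in U-2932 of the 48 members at 1 CPM or more, with TMM scaling (filled) and spike-in scaling (open), and the median of genes at 5 CPM or more under each (dotted 0.03, dashed 0.75). The plotted members lie further right with spike-in scaling by a similar amount. With spike-in scaling 25 members are called higher and 2 lower, against 9049 and 729 of 17327 tested genes.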

How the data were processed

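RNA-seq counts of 16 libraries (8 groups of 2 replicates) were analysed as the authors deposited them, as whole-number counts per gene and not normalized. The submitters' processing notes name Trimmomatic, DESeq2 and the build GRCh38 among their tools and builds. The sources used here do not give the gene counter or whether it used strand, so genes that overlap or share sequence are uncertain. The 92 spike-in RNAs and rows without a gene symbol (0.0442% to 0.140% of counts) were kept apart from the members. Samples were grouped by the line and time in the labels. The ATAC-seq files of the series were not used here.

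Of 58676 gene IDs, 17327 passed filterByExpr in edgeR 4.0.16 (R 4.3.3, limma 3.58.1). Counts were scaled with TMM and fitted with edgeR's quasi-likelihood model, with a mean for each of the 8 groups for contrasts within lines (8 residual degrees of freedom) and with terms for line and time across lines (11). P-values were adjusted by Benjamini-Hochberg over all tested genes, with a threshold of 0.05. SE was obtained from the log2 fold change and the F statistic, as its size over root F. The median biological coefficient of variation was 8.54%. The code was tested on simulated data. Alternatives were DESeq2 1.42.0, other scalings and filters, a replicate block, each line alone and leaving out libraries or lines.

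The members and lists were chosen with earlier results of these data known. Members given in full are those called in a line with the 3 highest or 3 lowest changes at a mean of 5 CPM or more, the 4 with the smallest p in each direction across lines, the 6 with the smallest p of the difference between lines, and 21 well known genes. Other pathway genes are the 2 largest changes per direction and comparison among those called at a mean of 5 CPM or more.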

Additional observations from a re-analysis of the deposited data

Results flagged for a closer look

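The change at 8 h differed between lines for 41 of the 49 tested members in a direct test of that difference (edgeR's quasi-likelihood test, 3 degrees of freedom, Benjamini-Hochberg adjustment over all tested genes). It differed for 53.5% of all tested genes, and with a stricter filter on low counts for 9167 of 14525 tested genes. With spike-in scaling it differed for 25 of the 49 members, a share near that of all tested genes (8570 of 17327). The 6 members with the smallest adjusted p were SQSTM1 (8.91e-20), PPARGC1B (4.29e-12), TOMM7 (1.15e-10), LONP1 (2.73e-10), BNIP3 (3.5e-10) and TIMM23 (3.23e-09). With 2 replicates a group, no library could be tested for standing apart from its own group.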

How the results depend on the processing

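With spike-in scaling, members called in SU-DHL-10 numbered 1 (0 lower), in OCI-LY3 7 (0 lower) and in OCI-LY19 14 (9 higher, 5 lower). In U-2932 25 were higher and 2 lower, and the change differed between lines for 25. Across lines 10 were called (10 higher, 0 lower), against 3991 higher and 286 lower of the 17327 tested genes. Without TMM scaling, SU-DHL-10 had 7 (3 higher, 4 lower), OCI-LY19 19 (5 higher, 14 lower) and the lines together 5 (5 lower). DESeq2 called 4 across lines (2 higher), the mean of the 4 line contrasts 26 (10 higher, 16 lower), and the stricter filter 1 higher. Leaving out OCI-LY19 gave 10 across lines (1 higher, 9 lower), leaving out U-2932 8 (2 higher, 6 lower), and leaving out SU-DHL-10 1 higher. The SU-DHL-10 libraries alone gave 6 (5 lower). RLE scaling changed no call among the values compared.

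Replicate numbers do not pair the samples (correlations of deviations from group means between -0.0247 and 0.0401 in the 4 lines), and with a replicate block 1 member was called across lines (1 lower).

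Leaving out 1 library at a time gave 5 to 13 called in SU-DHL-10 (1 to 2 higher, 3 to 12 lower), 8 to 13 in OCI-LY3 (3 to 6 higher, 5 to 10 lower), 26 to 34 in OCI-LY19 (20 to 24 higher, 4 to 10 lower), 34 to 39 in U-2932 (12 to 14 higher, 22 to 25 lower) and 1 to 3 across lines (0 to 2 higher, 1 to 2 lower). The change differed between lines for 38 to 43 and the level at 0 h for 46 to 48. A group left with 1 library is assumed to vary like the others.

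Of values called under either scaling, these log2 fold changes turned their sign with spike-in scaling in U-2932: TOMM22 0.29, TOMM40 0.20, TIMM9 0.44, TIMM10 0.14, TIMM17A 0.17, TIMM22 0.36, TIMM23 0.0325, TIMM44 0.36, TIMM50 0.18, SAMM50 0.27, FIS1 0.11, MFF 0.36, BNIP3L 0.32, FUNDC1 0.22, PHB2 0.17, TFB2M 0.63, POLRMT 0.72, TWNK 0.56, SSBP1 0.23, ESRRA 0.41, LONP1 0.28 and CLPP 0.03. Among these, TIMM44, TWNK and ESRRA were called under both scalings, lower with TMM and higher with spike-in scaling. Spike-in scaling gave TOMM40 0.0363 and TIMM8B 0.0037 in OCI-LY3 and MFF 0.0906 across lines. Counting values not called, the sign turned for 23 members in U-2932 (PINK1 is the addition), for 24 in OCI-LY3, for 15 in SU-DHL-10, and for 0 of the OCI-LY19 values. Without TMM scaling OCI-LY19 had TOMM20 -0.022, OPA1 -0.0307, TFAM -0.0799 and POLG -0.0258, and without U-2932 PPARGC1B stood at -0.29 across lines. Spike-in and TMM scaling differ by a shift of each library, and which is nearer to RNA per cell was not tested. Genes under 1 CPM (PINK1, OPTN and PPARGC1A in most lines) are limited by depth.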
